A study of Capra hircus with 2 samples.

Results

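miR-223, the microRNA (miRNA) best known from granulocytes and monocytes, was set beside miR-451, miR-144 and miR-486, known from red blood cells, in small RNA libraries of goat natural killer (NK) cells. NK cells are lymphocytes that kill infected or transformed cells, and those of the uterus also take part in early pregnancy. Neither a granulocyte nor a red cell is an NK cell, and these miRNAs were chosen as markers of other blood cells. Whether NK cells themselves also hold them was not tested, so their levels do not measure the share of other cells. The members were taken by name: every row of the deposited comparison that names one of the 4 miRNAs, whichever arm of the precursor it stands for. This gave 6 of the 590 listed miRNAs, namely both arms of chi-miR-223, of chi-miR-451 and of chi-miR-144 (the prefix chi stands for Capra hircus and is left off below). No arm of miR-486 is among the listed rows, so miR-486 was not analysed here.

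The study had 2 groups with 1 library each, both from female goats. The uNK library was made from NK cells taken from the uterus and the pNK library from NK cells taken from peripheral blood. No treatment, genotype or age is named for either group, and neither the number of animals nor any marker used in the separation is given in the sources used here. The study's title concerns miR-1 and its target TWEAK in uterine NK cells.

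Some background helps in reading the values. A miRNA gene is transcribed into a hairpin, which the enzymes Drosha and Dicer cut into a duplex of a 5p and a 3p arm, one of which is usually kept in the Argonaute protein and the other mostly lost. miR-223 is switched on during myeloid differentiation by PU.1 and C/EBP factors and restrains neutrophil production and inflammatory signalling; it is also abundant in platelets. miR-451 and miR-144 are made from a shared transcript that the red cell factor GATA1 activates, and in mice they protect red cells from oxidative damage. miR-451 is the known exception to the usual pathway: its hairpin is too short for Dicer and is cut by Argonaute 2 instead, so that the 5p product is the functional one. In the goat gene table of assembly ARS1.2 the miR-451 and miR-144 genes are direct neighbours between ERAL1 and FLOT2. The coding gene listed before miR-223 in that table is VSIG4.

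The libraries held 30063448 reads (pNK) and 31780927 reads (uNK), which follows from dividing counts by RPM values. Of these, 47.5% and 37.4% belonged to listed miRNAs. Levels are given as RPM, the reads of a miRNA per 1000000 reads of the library. Intervals are exact 95% intervals for counting error alone (Poisson for a level, Clopper-Pearson for a ratio or a share). With 1 library a group there was no replicate check and no test between the groups. In bulk RNA, fewer cells of a type and less of a miRNA per cell cannot be told apart.

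The myeloid marker and the red cell markers went in opposite directions. Both miR-223 arms were lower in the uNK library and all 4 arms of miR-451 and miR-144 were higher, by the direction in the authors' deposited table. Of the 590 listed miRNAs, 38.0% were higher in uNK and 62.0% lower; among the 314 with goat miRNA names, 54.1% were higher and 45.9% lower. Every listed miRNA had passed the authors' filter, so a count of 4 against 2 says little by itself, and the sizes below carry the description.

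miR-223-3p, the arm that is loaded into Argonaute in myeloid cells, counted 819029 reads in pNK and 574 reads in uNK. That was 27243 RPM (interval 27184 to 27302) in the blood preparation and 18.1 RPM (16.6 to 19.6) in the uterine one. It was the 4th most abundant listed miRNA of pNK and the 163rd of uNK. It took 5.73% of the listed reads in pNK (5.72 to 5.74%) and 0.00483% in uNK (0.00444 to 0.00524%). The uNK level was 0.0663% of the pNK level, a 1508-fold difference (1390 to 1640). Among the 373 listed miRNAs with reads in both libraries, none had a lower ratio of uNK over pNK.

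miR-223-5p, the arm usually discarded, counted 41756 reads in pNK and 97 reads in uNK. Its level was 1389 RPM (1376 to 1402) in pNK and 3.05 RPM (2.48 to 3.72) in uNK. This put it 34th among the listed miRNAs of pNK and 262nd among those of uNK. The uNK level was 0.220% of the pNK level, a 455-fold difference (373 to 561), and only 2 of the 373 miRNAs read in both libraries had a lower ratio. Both arms were therefore among the lowest ratios of the table, although their folds differed from each other by more than counting error.

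miR-451-5p, the functional product of the miR-451 hairpin, counted 97733 reads in pNK and 311439 in uNK. Its level was 3251 RPM (3231 to 3271) in pNK and 9800 RPM (9765 to 9834) in uNK, which is 3.01-fold higher in the uterine library (2.99 to 3.04). It ranked 21st among the listed miRNAs of pNK and 6th among those of uNK. A red cell miRNA was thus present at a high level in both preparations, at 0.684% of the listed reads in pNK (0.680 to 0.688%) and 2.62% in uNK (2.61 to 2.63%). Of the 373 miRNAs read in both libraries, 210 had a lower ratio of uNK over pNK than miR-451-5p.

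miR-451-3p, the remainder of the same hairpin, was near the limit of detection, with 6 reads in pNK and 16 in uNK. Its level was 0.20 RPM (0.0732 to 0.434) in pNK and 0.50 RPM (0.288 to 0.818) in uNK. These intervals overlapped, and the 2.52-fold ratio had an interval from 0.938 to 7.87, so no difference was detectable at this depth. The authors' deposited table nevertheless lists it as higher in uNK, with a q-value of 0.000504.

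miR-144-5p counted 59 reads in pNK and 271 in uNK, or 1.96 RPM (1.49 to 2.53) against 8.53 RPM (7.54 to 9.61). It was 4.34-fold higher in uNK (3.27 to 5.86). miR-144-3p counted 153 reads in pNK and 257 in uNK, or 5.09 RPM (4.31 to 5.96) against 8.09 RPM (7.13 to 9.14), and was 1.59-fold higher (1.30 to 1.95). Both arms were scarce in both libraries beside miR-451-5p. The size of the miR-144-3p difference depends on the scaling: computed from RPM its log2 ratio was 0.67, whereas the authors' deposited table gives 1.01, the smallest absolute log2 ratio of all its rows. With the libraries scaled by the median ratio of listed miRNAs it was 0.00, because miR-144-3p is itself the miRNA at that median.

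**Figure D1:**
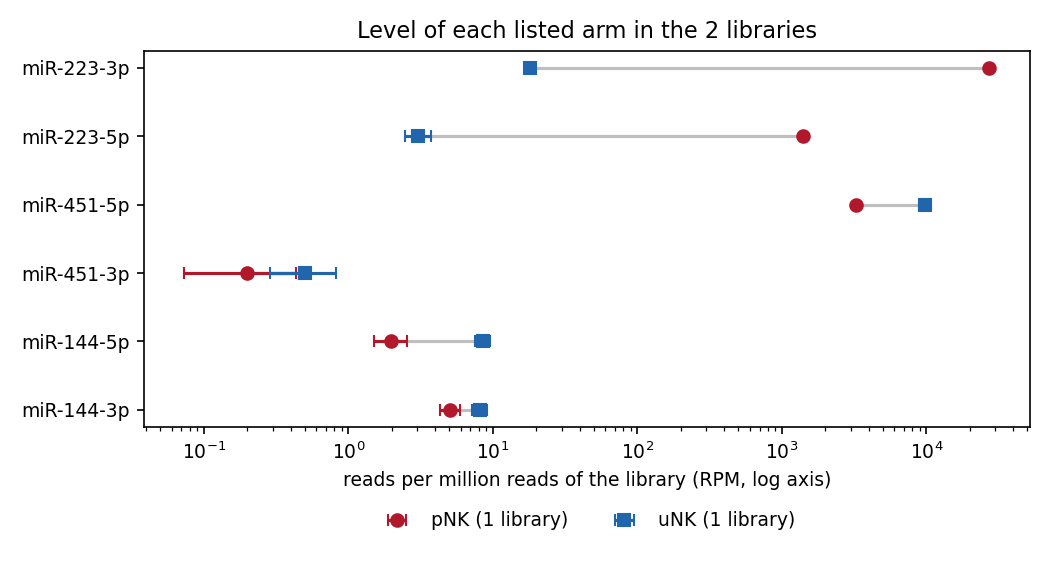
Level of each listed arm in RPM (log axis) in the pNK library (red circles) and the uNK library (blue squares), with exact 95% Poisson intervals for counting error; grey lines join the 2 libraries. The miR-223 arms are far to the right in pNK (27243 and 1389 RPM), whereas the miR-451 and miR-144 arms are further right in uNK, with overlapping intervals for miR-451-3p.

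The ratio of one miRNA to another within a library does not depend on how the libraries are scaled. In pNK there were 8.38 reads of miR-223-3p for each read of miR-451-5p (8.32 to 8.44). In uNK there were 543 reads of miR-451-5p for each read of miR-223-3p (499.9 to 590). The order of these markers was thus turned around between the preparations, and the ratio of miR-451-5p over miR-223-3p differed 4547-fold, or by 12.15 on the log2 scale (12.03 to 12.27, a normal approximation for counting error). Measured against miR-223-3p in the same way, miR-144-5p differed by 12.68 (12.26 to 13.10), miR-144-3p by 11.23 (10.91 to 11.54) and miR-451-3p by 11.89 (10.53 to 13.25) on the log2 scale. Most of each difference comes from miR-223-3p, whose own log2 ratio was -10.56.

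The neighbouring miR-451 and miR-144 genes gave very unequal numbers of reads. miR-451-5p took 99.8% of the 97951 reads of both hairpins in pNK and 99.8% of the 311983 reads in uNK. Summed over arms, there were 461 reads of miR-451 for each read of miR-144 in pNK (403 to 530) and 590 in uNK (542 to 644). The summed miR-144 level per miR-451 read was therefore lower in uNK, by 0.36 on the log2 scale, a difference of -0.36 with an interval from -0.59 to -0.13. The arms of miR-144 went different ways relative to miR-451-5p: the 5p arm was 1.44-fold higher per miR-451-5p read in uNK (log2 difference 0.53, interval 0.12 to 0.93) and the 3p arm 1.90-fold lower (log2 difference -0.92, interval -1.21 to -0.63).

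**Figure D2:**
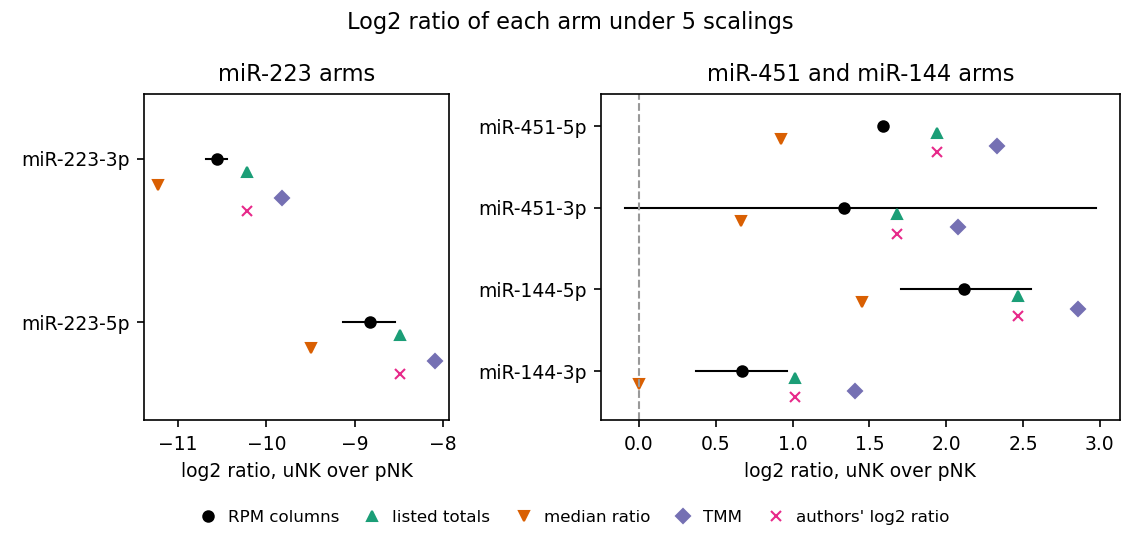
Log2 ratio of uNK over pNK for the miR-223 arms (left) and the miR-451 and miR-144 arms (right), on the RPM scale with its 95% interval (black), scaled by 3 other methods (listed totals, median ratio and TMM) and as the authors deposited it. Each scaling moves all arms by the same amount; the miR-223 arms stay between -11.23 and -8.09, and miR-144-3p reaches 0.00 with the median ratio.

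The balance between the arms of a precursor also differed between the libraries. For miR-223 there were 5.10 reads of the 5p arm per 100 reads of the 3p arm in pNK and 16.9 in uNK, a log2 difference of 1.74 (1.42 to 2.05) after adding 0.5 counts. For miR-144 there were 38.6 reads of the 5p arm per 100 reads of the 3p arm in pNK and 105 in uNK, a log2 difference of 1.44 (0.95 to 1.94). In both cases the 5p arm made up more of the precursor's reads in uNK. For miR-451 the difference was 0.33 with an interval from -0.98 to 1.64, so none was detectable with 6 and 16 reads of the 3p arm.

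These shifts were of a size seen in many of the precursors with both arms listed. Among the 94 precursors that had a row for each arm and 10 or more reads of each arm over both libraries, the median absolute log2 difference was 1.11, and 54 reached 1. The miR-223 difference was exceeded by 20 of them and the miR-144 difference by 28. Every row had passed the authors' filter, and some precursors had 0 reads of an arm in 1 library. The 94 therefore do not give the usual size of a shift over all precursors. miR-451 had one of the highest arm ratios of 5p over 3p in both libraries, with a log2 ratio of 13.88 in pNK and 14.20 in uNK. let-7c, named after its values were seen, had 0 reads of its 3p arm in pNK and stood at 13.99 in uNK, so a ratio of this size was not particular to miR-451.

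**Figure D3:**
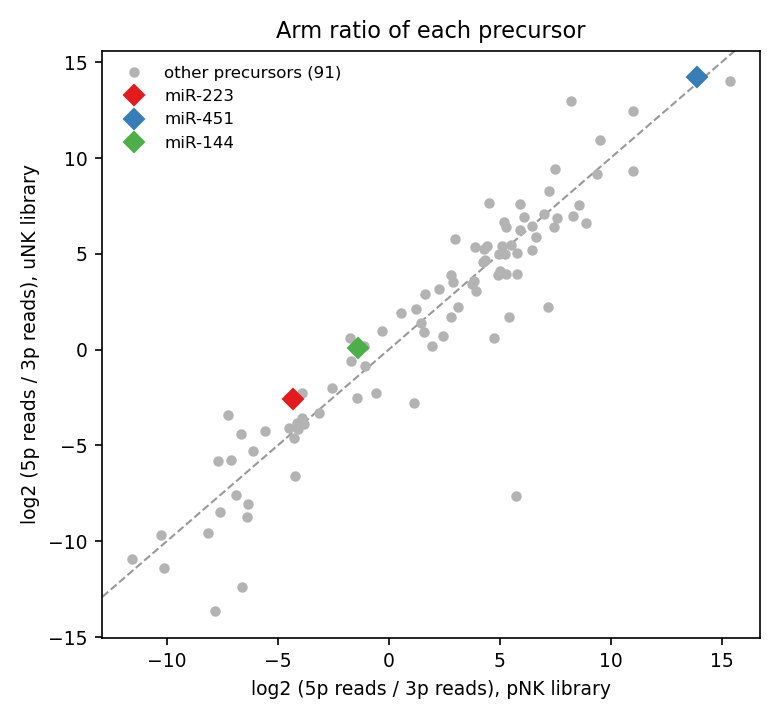
Log2 ratio of 5p over 3p reads of each of the 94 precursors in the pNK library (x axis) and the uNK library (y axis), after adding 0.5 counts; the dashed line marks equal ratios. miR-223 and miR-144 lie above the line by 1.74 and 1.44, and miR-451 lies at the upper right end, with 5p reads far above 3p reads in both libraries.

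The miRNAs nearest to miR-223-3p in their ratio of uNK over pNK, among annotated miRNAs with at least 100 reads in the higher library, were miR-150, miR-223-5p and miR-27a-5p. Likeness is the distance between log2 ratios over these 2 libraries. miR-150, a miRNA of mature lymphocytes, stood 1.35 log2 units away, with 572771 reads in pNK and 1023 in uNK. miR-27a-5p, the minor arm of miR-27a, stood 2.39 away, with 6241 and 23 reads. Even its nearest neighbours thus lay well above miR-223-3p. There were 1.43 reads of miR-223-3p for each read of miR-150 in pNK and 0.561 in uNK (0.506 to 0.622). For miR-451-5p the nearest were miR-181d, miR-335-3p and miR-153, at distances of 0.0026, 0.077 and 0.22. These have at most 2008 reads in uNK, far fewer than miR-451-5p, and their likeness is one of ratio alone.

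Other miRNAs that red cells hold, but which other cells also express, did not share the direction of miR-451. All 10 listed arms of that list (miR-15a, miR-16a, miR-16b, miR-25, miR-92a and miR-363) were lower in uNK. Of all listed miRNAs 62.0% were lower, and of the annotated ones 45.9%. The median log2 ratio of the 10 arms was -3.32, against -2.20 over all listed miRNAs and 1.15 over the annotated ones. The 4 arms of miR-451 and miR-144 had a median of 1.46, near that of the annotated miRNAs, so their rise did not stand out among these. miR-16a-5p, which represses cell cycle genes, had 22492 RPM in the blood library and 1173 RPM in the uterine one, miR-16b-5p at 6955 and 702 RPM, and miR-92a-3p, a member of the miR-17-92 cluster, at 5321 and 638 RPM. The copies of miR-16 are close in sequence, so their separate counts are uncertain. As a result miR-16a-5p exceeded miR-451-5p by 6.92 to 1 in pNK (6.87 to 6.97), whereas miR-451-5p exceeded miR-16a-5p by 8.35 to 1 in uNK (8.26 to 8.44).

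Other miRNAs linked to myeloid cells were mostly lower in uNK, over a wide range. Which cells their reads came from was not tested. Of the 10 listed arms of miR-23a, miR-24, miR-27a, miR-146a, miR-146b and miR-147, 8 were lower and 2 higher. Their median was -4.48, against -2.20 over all listed miRNAs and 1.15 over the annotated ones. Of these 2 sets, 62.0% and 45.9% were lower. The lower arms ran from -8.16 for miR-27a-5p, close to miR-223-5p at -8.83, through -7.23 for miR-146b-5p, a miRNA that dampens inflammatory signalling and was named here after its value was seen, to -2.18 for miR-23a. miR-27a-3p and miR-23a, the most abundant arms of the list and those with the smallest differences among its lower arms, come from a cluster that PU.1 activates in mice. They stood at 20.4% and 22.0% of their pNK level in uNK, against 0.0663% for miR-223-3p. The 2 higher arms were both of miR-24, which in humans and mice is made from more than 1 gene. miR-24-3p stood at 166% of its pNK level, and miR-24-5p had a log2 ratio of 1.32. The part of each gene in these reads was not tested.

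Platelets also carry miR-223, so their other miRNAs were set beside it. Of 10 listed platelet arms, 8 were lower and 2 higher in uNK, with a median of -3.53. Over all listed miRNAs 62.0% were lower, with a median of -2.20. Over the annotated ones 45.9% were lower, with a median of 1.15. miR-191-5p stood at 3.87% and miR-423-3p at 3.77% of their pNK level. miR-126-3p, which endothelial cells hold as well, was 5.99-fold higher in uNK, at 9887 against 1651 RPM. For none of these arms, higher or lower, was the source of the reads tested.

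Markers of other cell types also differed between the libraries. No miRNA defines NK cells, so the labelled cell type was compared with lymphocyte miRNAs. Of 8 listed arms, 6 were lower and 2 higher in uNK, where 62.0% of all listed miRNAs and 45.9% of annotated ones were lower. Their median log2 ratio was -2.89, against -2.20 over all listed miRNAs and 1.15 over the annotated ones. Together the 8 arms had 21785 RPM in the blood library and 438 RPM in the uterine one. miR-150 alone held 19052 and 32.2 RPM of these sums, so the summed difference is mostly that of miR-150. One of the 8, miR-181b-3p, had 0 reads in uNK, and its log2 ratio of -1.50 rests on the floor of 3 counts. With a filter of at least 100 counts, 4 arms were lower and 2 higher. miR-150 stood at 0.169% of its pNK level, miR-342-3p at 6.80% and miR-155-5p, which acts in lymphocyte activation, at 10.5%. The 2 higher arms were miR-181d and miR-181c-5p, with log2 ratios of 1.59 and 0.98. miR-142, a miRNA of leukocytes in general, was not analysed here because no arm of it is among the listed rows. miR-223-3p, taken as a myeloid marker, exceeded miR-150, a lymphocyte marker, in the library labelled as blood NK cells. Which cells the reads of miR-223-3p came from was not tested.

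All 19 listed arms of the stromal and smooth muscle list were higher in uNK, as were all 5 epithelial miRNAs. Of all listed miRNAs 38.0% were higher, and of the annotated ones 54.1%. The summed level was 13784 against 200083 RPM for the stromal list and 257 against 3592 RPM for the epithelial one (pNK before uNK). miR-143-3p alone held 11522 and 169065 RPM of the stromal sums. The most abundant were miR-143-3p, miR-199b-3p and miR-99a-5p among the stromal arms and miR-200b, miR-200c and miR-200a among the epithelial ones. miR-451-5p, at 3.01-fold, was higher by less than any arm on these lists, whose log2 ratios ran from 2.84 to 5.92 (stromal) and from 3.44 to 3.97 (epithelial). The part of these cell types in the levels of miR-223 and miR-451 was not tested.

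**Figure D4:**
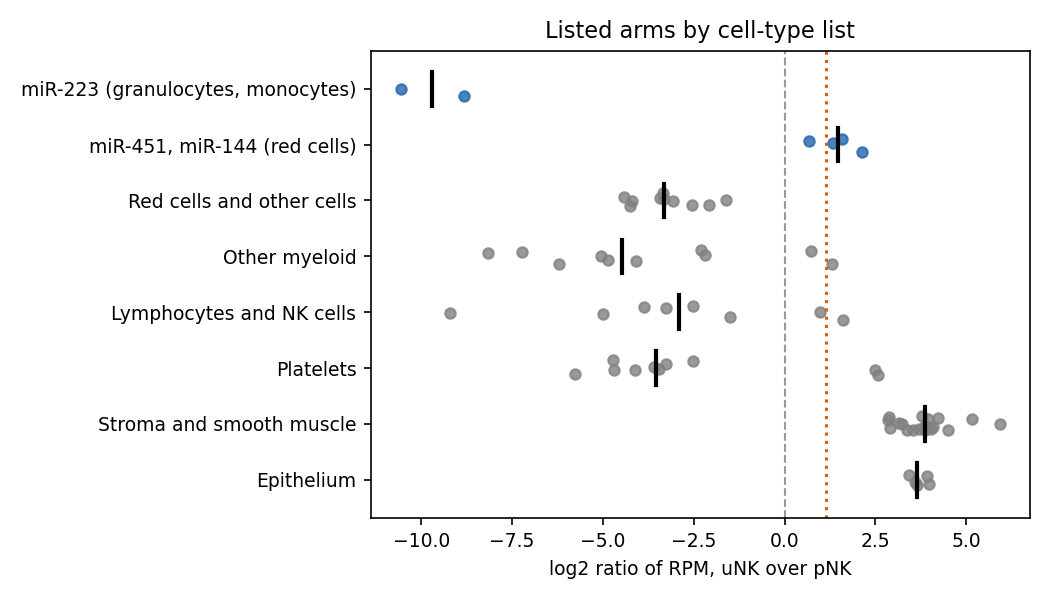
Log2 ratio of RPM (uNK over pNK) of each listed arm, by list; black bars are list medians, the dashed line marks 0 and the dotted orange line the median of the 314 annotated miRNAs (1.15). The miR-223 arms lie left of every other arm except miR-150, which falls between them, and the miR-451 and miR-144 arms lie left of every stromal and epithelial arm and overlap the few arms of the myeloid and lymphocyte lists that were higher in uNK.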

How the data were processed

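The members and the marker lists were chosen with earlier results of these data known. Per the labels' protocols, Trizol was used for total RNA; no source used here names the kit, aligner, counter or genome build. The deposited table is named for DEGseq and a differential expression filter. Per the file headers it holds read counts. Its expression columns behave as RPM values in the deposited table: count over value is constant, to rounding, for miRNAs with at least 5000 reads, and gave the library totals. The authors' deposited log2 ratio lies 0.35 above the log2 ratio of RPM. The authors' deposited q-values are below their p-values in all 427 rows with a p-value above 0, so they were used only as quoted.

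Folds were computed from counts and library totals. A count of 0 was replaced by a floor of 3 counts in list medians. Counting intervals ignore amplification and animal-to-animal spread. Intervals on differences of ratios are normal approximations. Named were all member arms, the 3 miRNAs nearest in log2 ratio to miR-223-3p and to miR-451-5p (at least 100 counts), and the 3 most abundant arms of each list. Alternatives were other scalings (listed totals, median ratio, TMM in edgeR 4.0.16), pseudocounts of 1 and 5 RPM, summed arms, a 100-count filter and 1 arm per precursor. Ratio intervals were run on simulated Poisson counts, the error that they assume. That run therefore says nothing of amplification or animal-to-animal spread. Python 3.11.15, scipy 1.17.1 and matplotlib 3.10.9 were used. Gene neighbours came from the RefSeq table of ARS1.2, and no coordinates are given because the build of the files is not named.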

Additional observations from a re-analysis of the deposited data

How the results depend on the processing

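No paired analysis was possible because there was only 1 library in a group, which also left none to drop. The log2 ratio of miR-223-3p, -10.56 on the RPM scale, was -10.21 when scaled by listed totals, -11.23 by the median ratio and -9.82 by TMM. It was -10.21 with a pseudocount of 5 RPM, -10.41 with its arms summed and -10.21 as the authors deposited it (this alternative was added after seeing the data). That of miR-451-5p, 1.59 on the RPM scale, was 1.94, 0.92 and 2.33 with the 3 scalings in the same order and 1.94 in the deposited table. The ratio of miR-451-5p over miR-223-3p differed by 12.00 on the log2 scale with both miR-223 arms as denominator. Over all 7 alternatives miR-223-5p lay between -10.41 and -7.44. The -10.41 is the value with both arms summed, where the 3p arm holds most reads. Scaled by the median ratio, miR-223-5p alone was at -9.50. Over the same alternatives miR-144-5p lay between 0.96 and 2.86, miR-451-3p between 0.08 and 2.08, and miR-144-3p between 0.00 and 1.41. Each scaling other than RPM used miRNAs that the authors had called different. With 1 arm per precursor some list counts changed by more than 1.5 times, as fewer arms were then counted, but those of the epithelial and lymphocyte lists did not; no list gained a member in the direction where it had none. Depth limits miR-451-3p.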
